A study of Mus musculus with 2 samples.

Results

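Keratins were examined in embryonic mouse ureters (E14.5). The members were all array probes, control spots aside, whose gene name in the scanner files is Krt followed by a number and an optional letter, and names of keratin-associated proteins (Krtap), Krtcap and Krtdap were left out. That rule gave 68 probes of 39429 and 52 genes of 29875. By sequence family, 27 of the genes were type I keratins, 24 were type II, and Krt222 was assigned to neither. Of the 52 genes, 32 had a probe well above background and entered the test, and 20 did not.

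The samples were total RNA of ureters dissected from NMRI mouse embryos. On each of 2 two-colour Agilent arrays, RNA from an embryo group labelled Smad4cKO (UE) was hybridised beside RNA from a control group. The knockout carried a Pax-cre/+;Smad4(fl/fl) genotype in the sample descriptions, so Smad4 was floxed on both alleles together with 1 Cre allele, and the name does not say which Pax gene drives it. The control was labelled Smad4(fl/?), with a floxed allele, a second allele that the label does not specify and no Cre named. On replicate 1 the embryos were labelled female and the knockout was in Cy3, and on replicate 2 they were labelled male and the knockout was in Cy5. Sex and dye orientation therefore changed together and cannot be told apart. The number of embryos behind each RNA sample and their litters are not given in the sources used here, and p-values measure only the spread between these arrays.

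Keratins are the intermediate filament proteins of epithelia. A type I keratin pairs with a type II keratin to build the filament, and the pair in use marks the kind of epithelium: KRT8 with KRT18 in simple epithelia, KRT5 with KRT14 in the basal layer of stratified epithelia, and KRT1 with KRT10 in cornifying epidermis. In the mature urothelium, KRT5 marks basal cells and KRT20 marks superficial umbrella cells. SMAD4 is the common partner through which receptor-activated SMADs relay BMP and TGF-beta signals to genes, and the comparison asks how keratin transcripts stood where the ureteric epithelium was made to lack it.

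A level is the log2 normalised intensity of a probe in 1 channel, which serves to compare the same probe between samples and not different probes with each other. Where levels of the groups are said not to overlap, no share of all genes is given beside it, so the remark only describes the values. A log2 ratio is labelled knockout over labelled control on 1 array, so a positive value is higher in labelled knockout. Directions follow the dyes in the labels. The authors' deposited table names the knockout first in its titles but runs control over knockout by those dyes. It was turned before use, so its signs do not support the direction. If the dye labels were exchanged, each sign below would turn and the sizes would stay. A gene passed the test at a limma adjusted p under 0.05, over 20104 genes. With 2 arrays an exact sign-flip test of a single gene cannot go below p = 0.5, and limma reaches lower values only by borrowing its variance from all genes. Smad4 itself had a log2 ratio of -0.58 on replicate 1 and -0.08 on replicate 2 with its brighter probe and did not pass (limma adjusted p = 1.00). Its other probe read -0.09 and -0.33. The position of both probes relative to the loxP sites was not determined, so these values are no check of the genotype labels. Per channel, 66.5% to 69.1% of all probes were well above background. In bulk tissue, fewer cells of a type and less RNA per cell cannot be told apart.

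Detection differed between the classes. The 2 simple type II keratins (Krt7 and Krt8), the 3 simple type I keratins (Krt18, Krt19 and Krt20) and the 3 basal keratins (Krt5, Krt14 and Krt15) were all well above background. Of the stress and appendage keratins 4 of 5 were, with Krt17 as the exception, and of the suprabasal keratins of stratified epithelia 8 of 12, with Krt4, Krt12, Krt76 and Krt77 as the exceptions. Of the inner root sheath keratins of the hair follicle 2 of 8 were, Krt28 and Krt73, and of the hair shaft keratins 7 of 15. Among the other keratins Krt23, Krt42 and Krt222 were, and Krt24 was not. A gene counted here if any of its probes passed the signal filter. In 10 of these genes another probe did not pass it: Krt2, Krt5, Krt6b, Krt13, Krt28, Krt36, Krt42, Krt78, Krt85 and Krt222. Counted over probes, 36 of 68 keratin probes (52.9%) passed the signal filter, against 67.3% of all probes. By channel, 36 keratin probes were well above background in labelled knockout on replicate 1 and 37 on replicate 2, against 36 on each array in labelled control. Of the 68 probes, 35 were well above background in all 4 channels and 29 in none.

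**Figure D1:**
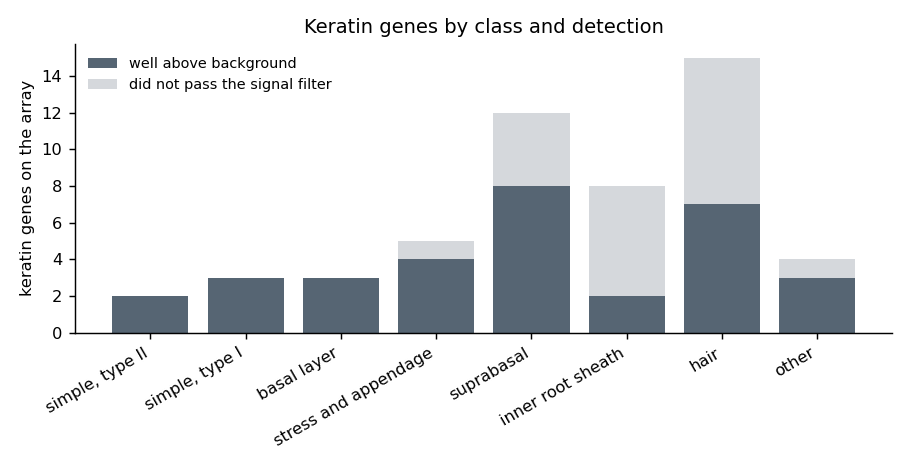
Number of keratin genes on the array in each class (vertical axis), split into genes with a probe well above background (dark) and genes without (light). Each gene of the simple and basal classes was well above background, while 2 of 8 inner root sheath keratins and 7 of 15 hair keratins were.

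None of the 32 measured keratins passed the test, where 0.328% of all genes did. At an unadjusted p under 0.05 in limma there were 7, Krt13, Krt19, Krt20, Krt36, Krt42, Krt6a and Krt78, beside 914 of all 20104 genes (4.55%). Krt78 entered the test through its labelled knockout channels alone, so that it had to read higher there, and the counts and medians over the 32 include it. By size alone, Krt20 was at least 1.5-fold apart in 1 direction on each array, as were 0.368% of all genes. The median log2 ratio of the 32 keratins was -0.00863, against -0.00438 for all genes. Their mean ratios were more spread out than those of most genes: 4 of 32 lay beyond 0.5 in either direction, against 1.13% of all genes. On both arrays 13 keratins were above 0, where 21.7% of all genes were, and 8 were below 0, where 24.6% were. The remaining 11 had opposite signs on the 2 arrays, 9 brighter in Cy5 and 2 brighter in Cy3, where 27.1% and 26.5% of all genes were. The SD between the 2 arrays had a median of 0.13 and ran from 0.00162 for Krt18 to 0.75 for Krt75. The 16 type I keratins had a median of 0.0201 and the 15 type II keratins one of -0.00297.

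**Figure D2:**
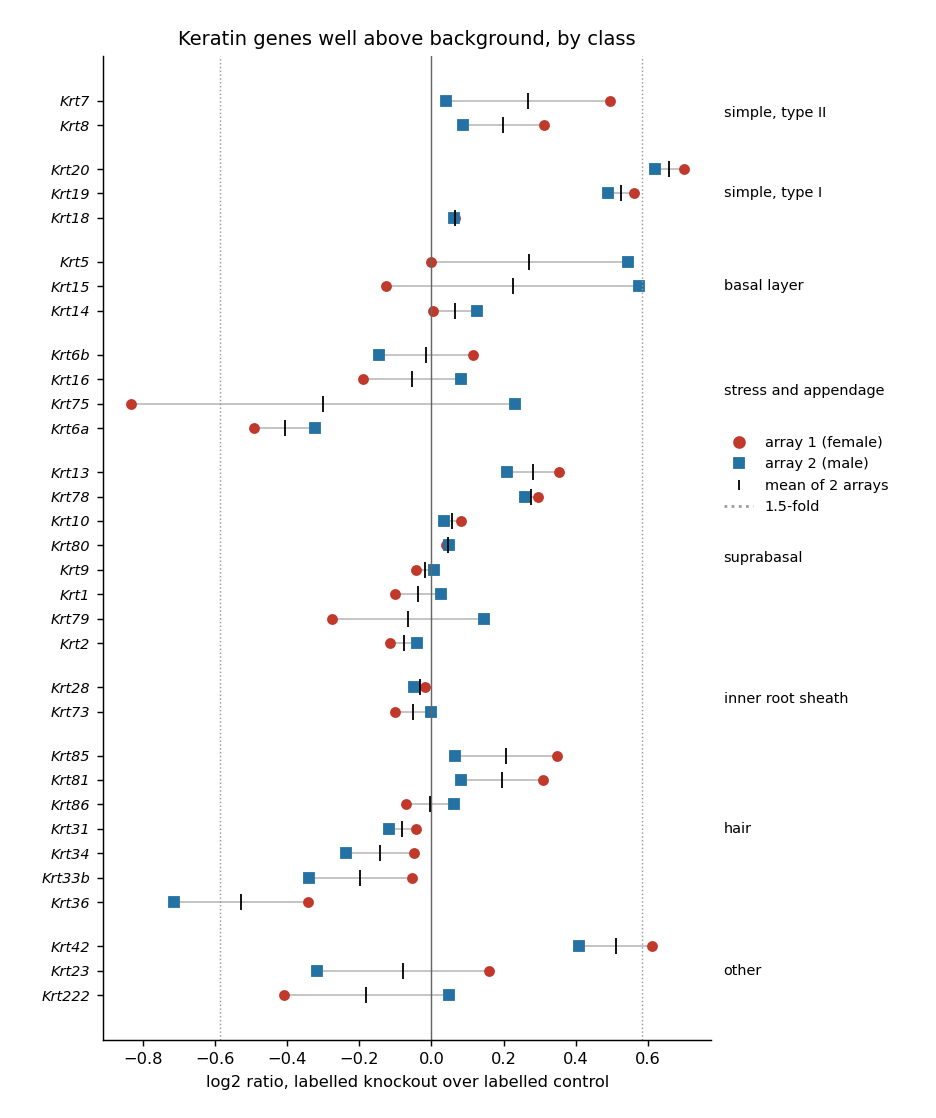
Log2 ratio of labelled knockout over labelled control (horizontal axis) for each of the 32 measured keratins, grouped by class, on array 1 (circles) and array 2 (squares), with the mean as a tick and dotted lines at 1.5-fold. Krt20 is the gene with both points beyond a dotted line, and Krt75, Krt15 and Krt5 show the widest gaps between the arrays.

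Of the simple-epithelium type I keratins, Krt20 and Krt19 had the largest positive mean ratios of the family, and Krt18 read near 0. Krt20, the keratin of umbrella cells and of gut epithelium, had levels of 9.46 and 9.38 in labelled knockout, against 8.76 and 8.76 in labelled control. Both knockout channels lay above both control channels. The log2 ratio was 0.70 on replicate 1 and 0.62 on replicate 2, a mean of 0.66 ± 0.057 (SD, n = 2 arrays) or 1.58-fold, with a 95% interval of 0.39 to 0.93 in limma. It missed the threshold (limma adjusted p = 0.0646) at rank 75 by p, 74 genes having a lower p. In 7 of 10 alternative settings it passed, with adjusted p from 0.0103 to 1.00 over the 10 and a mean ratio from 0.66 to 0.76.

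Krt19, the small keratin without a tail domain that is found in simple and ductal epithelia, had levels of 14.88 and 14.64 in labelled knockout, against 14.32 and 14.15 in labelled control. The groups did not overlap. The log2 ratio was 0.56 on replicate 1 and 0.49 on replicate 2 (mean 0.53 ± 0.051, SD, n = 2), and it did not pass in limma (adjusted p = 0.194) or in any of 10 alternatives, where the lowest adjusted p was 0.0934. Krt18, the type I partner of KRT8, had levels of 16.72 and 16.64 in labelled knockout, against 16.65 and 16.57 in labelled control, and a ratio of 0.0657 and 0.0634 (adjusted p = 1.00 in limma). Its interval of -0.20 to 0.33 leaves room for differences in either direction. It lies below the mean ratios of Krt19 and Krt20 but overlaps the interval of Krt19, 0.26 to 0.79. The difference between these keratins was not tested.

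The probes of this class lie on mouse chromosomes 11 and 15 of mm9, where the type I and type II keratin clusters are. Krt18 stands apart from the type I genes, among the type II genes. The Krt19 probe, at chr11:100002392-100002451 on the minus strand, is shown because its arrays differed least among the keratins with a mean ratio beyond 0.5 in either direction:
Krt19: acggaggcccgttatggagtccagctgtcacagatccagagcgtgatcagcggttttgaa

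The simple type II keratins read positive on both arrays with uneven sizes. Krt8, the type II partner of KRT18 and among the first keratins of the embryo, had levels of 16.06 and 15.82 in labelled knockout, against 15.75 and 15.74 in labelled control. The log2 ratio was 0.31 on replicate 1 and 0.0868 on replicate 2 (mean 0.20 ± 0.16, SD, n = 2, limma adjusted p = 1.00). A second Krt8 probe read 0.60 and 0.21. Krt7, a keratin of ducts and of urothelium, had levels of 12.58 and 12.44 in labelled knockout, against 12.08 and 12.40 in labelled control. Its ratio was 0.49 on replicate 1 and 0.0407 on replicate 2, so that nearly all of the mean of 0.27 ± 0.32 came from the female array.

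The basal keratins differed between the arrays in the other sense. Krt5, the marker of basal cells, had levels of 7.43 and 7.88 in labelled knockout, against 7.43 and 7.33 in labelled control. The log2 ratio was -0.00221 on replicate 1 and 0.54 on replicate 2 (mean 0.27 ± 0.39, SD, n = 2). Krt15, a type I keratin of basal cells, had levels of 8.61 and 8.66 in labelled knockout, against 8.73 and 8.08 in labelled control. Its ratio was -0.12 on replicate 1 and 0.58 on replicate 2, and the control channel of replicate 2 was the low one. Krt14, the type I partner of KRT5, read 0.00489 and 0.13. None of the 3 passed (limma adjusted p = 1.00 for each), and leaving out replicate 2 takes the Krt5 ratio from 0.27 to -0.00221.

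**Figure D3:**
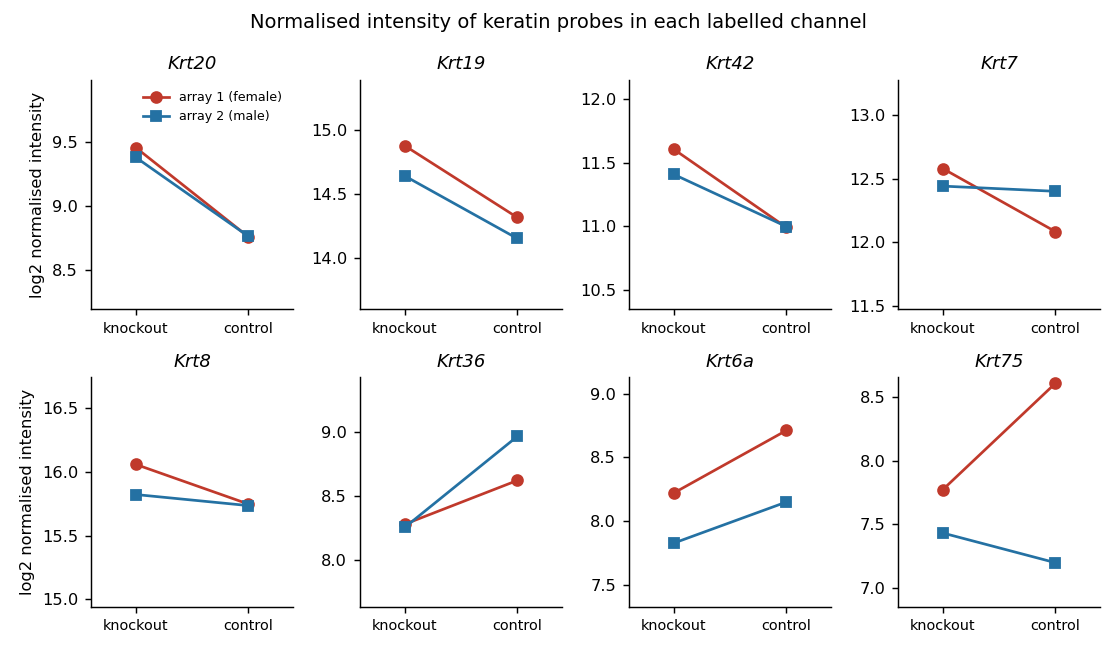
Log2 normalised intensity (vertical axis, each panel spanning 1.8 units) of 8 keratin probes in the labelled knockout and labelled control channel of array 1 (circles) and array 2 (squares), with a line joining the channels of an array. Krt20, Krt19 and Krt42 lie higher in knockout on both arrays, Krt36 and Krt6a lie lower, and the lines of Krt75 run opposite ways.

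The keratins of stressed epithelium and skin appendages read near or below 0. Krt6a, which is induced in wounded and hyperproliferative epithelia, had levels of 8.22 and 7.83 in labelled knockout, against 8.71 and 8.15 in labelled control. On each array knockout lay below its control, although the knockout channel of replicate 1 was above the control channel of replicate 2. The ratio was -0.49 and -0.32 (mean -0.41 ± 0.12, SD, n = 2, limma adjusted p = 0.499, lowest adjusted p over the alternatives 0.108). Krt75, a keratin of the companion layer of the hair follicle, had the widest gap of the family. Its levels were 7.77 and 7.43 in labelled knockout, against 8.608 and 7.199 in labelled control, and its ratios -0.83 on replicate 1 and 0.23 on replicate 2. The high value was the female control channel. Krt16, the usual type I partner of the KRT6 proteins, read -0.19 and 0.08, and Krt6b read 0.12 and -0.14.

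The suprabasal keratins lay close to 0, apart from Krt13 and from Krt78, whose direction was set by the signal filter. Krt13, the type I keratin of internal stratified epithelia, had levels of 8.52 and 8.46 in labelled knockout, against 8.17 and 8.25 in labelled control. The ratio was 0.35 and 0.21 (mean 0.28 ± 0.10, SD, n = 2, limma adjusted p = 1.00). Its type II partner gene Krt4 was not well above background in any channel. Krt78, a type II keratin of stratified epithelia, cleared background in both labelled knockout channels and in neither labelled control channel. Having entered through labelled knockout alone, it had to read higher there, so the direction of its ratio is no result. Its mean levels were 6.99 in labelled knockout and 6.72 in labelled control, 1.21-fold apart, and it did not pass (limma adjusted p = 1.00). It passed in 2 of 9 alternatives, processed signals and the authors' deposited table, and those calls rest on control channels that were not well above background. A second Krt78 probe, identical over the 50 bases that the probes share, was not well above background in any channel, labelled knockout included.

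The keratins of cornified skin had mean ratios close to 0 with the probe that stood for each gene. The limma intervals were wide, -0.34 to 0.19 for Krt2 and -0.28 to 0.25 for Krt9, and leave room for differences in either direction. Krt1, the type II keratin of cornifying epidermis, read -0.10 and 0.0275, and its partner Krt10 read 0.0824 and 0.0340, with a second probe at 0.24 and 0.19. Krt2, of the upper epidermis, read -0.11 and -0.0387, Krt9, of palm and sole skin, read -0.0440 and 0.00818, and Krt80 read 0.0411 and 0.0502. Krt79 read -0.28 on replicate 1 and 0.14 on replicate 2. All of these had a limma adjusted p of 1.00. Among markers of epidermis, 6 of 9 on the array were measured and Dsc1, Dsg1a and Krtdap were not well above background. Of the 6 measured, 3 are Krt1, Krt2 and Krt10 themselves. The summed linear level of the other 3 (Ivl, Lor and Sbsn) was 1757 and 1821 in labelled knockout, against 1739 and 1787 in labelled control, and none passed. Their part in the keratin values was not tested.

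The hair keratins held the lowest mean ratio of the family. Krt36, a type I hair keratin, had levels of 8.28 and 8.25 in labelled knockout, against 8.62 and 8.97 in labelled control. Both knockout channels lay below both control channels. The ratio was -0.34 and -0.71 (mean -0.53 ± 0.26, SD, n = 2), and a second kept probe of the gene read -0.26 and -0.33. It did not pass (limma adjusted p = 0.284), and it passed in 2 of 10 alternatives, at -0.66 with processed signals (adjusted p = 0.0427) and at -0.72 with the authors' deposited table (adjusted p = 0.0333). Another Krt36 probe was not well above background in any channel. The other measured type I hair keratins read in the same direction on both arrays. Krt33b read -0.0544 and -0.34, Krt34 -0.0494 and -0.24, and Krt31 -0.0435 and -0.12. Krt33b and Krt34 were dim, with levels of 6.97 to 7.31 and 6.91 to 7.17 over the channels. The lowest labelled control signals well above background were 6.59 on replicate 1 and 6.67 on replicate 2. With processed signals the mean of Krt33b was -0.49 and that of Krt34 -0.40, with deposited values they were -0.49 and -0.51, and neither passed in any alternative.

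Of the type II hair keratins, Krt81 read 0.31 on replicate 1 and 0.0828 on replicate 2, and Krt85 read 0.35 and 0.0645. Krt86, the other measured type II hair keratin, read -0.0700 and 0.0641, with opposite signs on the arrays. Krt81 and Krt85 had a limma adjusted p of 1.00, and both probes were well above background in all 4 channels. The array design gives the Krt85 probe no position. Type II hair keratins are closely similar in sequence, and how far these probes bind the transcripts of other members was not determined, so the values are uncertain as readings of single genes. Another Krt85 probe read -0.49 and 0.38, with opposite signs on the 2 arrays. The Krt83 probe was not well above background in any channel, and the name Krt83 of the files is Krt87 in RefSeq.

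Of the inner root sheath keratins, Krt28 read -0.0167 and -0.0486 and Krt73 read -0.10 and -0.00234. Of 10 hair follicle markers 6 were measured, with Krt25, Krt27, Krt35 and Krt71 not well above background. Of the 6 measured, 3 are Krt28, Krt73 and Krt85 themselves. The summed linear level of the other 3 (Lef1, Shh and Trps1) was 7601 and 7109 in labelled knockout, against 8612 and 6504 in labelled control, and none passed.

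Krt42, a type I keratin gene that is functional in the mouse and a pseudogene in humans, also had a ratio beyond 0.5. Its levels were 11.60 and 11.41 in labelled knockout, against 10.99 and 11.00 in labelled control. The groups did not overlap. The ratio was 0.61 on replicate 1 and 0.41 on replicate 2 (mean 0.51 ± 0.14, SD, n = 2), and it did not pass in limma (adjusted p = 0.245) or in any of 10 alternatives (lowest adjusted p 0.105). A second Krt42 probe was not well above background in any channel. The probe that was measured shares 41 of 58 aligned bases, in capitals, with a Krt28 probe that was not well above background in any channel:
Krt42: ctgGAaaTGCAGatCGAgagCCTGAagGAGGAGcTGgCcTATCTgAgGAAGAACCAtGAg
Krt28: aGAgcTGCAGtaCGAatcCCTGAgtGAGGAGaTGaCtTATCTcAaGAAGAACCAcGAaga
The Krt42 probe lies at chr11:100128252-100128311 and the Krt28 probe at chr11:99234074-99234133, both of mm9 and on the minus strand. Of 2260 pairs of keratin probes from different genes, 6 shared at least 70% of 40 or more aligned bases.

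The remaining keratins had opposite signs on the 2 arrays. Krt23, a type I keratin, read 0.16 and -0.32, with levels of 12.13 and 11.82 in labelled knockout, against 11.97 and 12.14 in labelled control. Krt222, a short keratin-like gene, read -0.41 and 0.0487, with levels of 13.46 and 13.41 in labelled knockout, against 13.87 and 13.36 in labelled control. In both genes the ranges of the groups overlapped (limma adjusted p = 1.00 each).

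Partner genes had these mean ratios. Krt8 and Krt18 read 0.20 and 0.0645, Krt5 and Krt14 of 0.27 and 0.0657, and Krt1 and Krt10 of -0.0366 and 0.0582. Whether the members of a pair differ was not tested.

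Genes that work with keratins were read from lists. Of 12 measured linkers, which anchor keratin filaments to desmosomes and hemidesmosomes, none passed in limma, and their median log2 ratio was 0.18, against -0.00438 for all genes. The plakin genes Ppl (periplakin) and Evpl (envoplakin), whose products bind intermediate filaments, had the largest mean ratios, 0.55 ± 0.10 (adjusted p = 0.176) and 0.48 ± 0.24 (adjusted p = 0.352, SD, n = 2 for each). Fam83h, which recruits casein kinase to keratin filaments, read 0.29, and Eppk1 (epiplakin) read 0.22. The median of the list was -0.00341 on replicate 1 and 0.31 on replicate 2.

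Of 15 transcription factors of epithelial differentiation, 2 passed, both higher in labelled knockout, where 0.229% of all genes passed in that direction. Grhl3, a grainyhead factor of surface differentiation, was 2.13-fold higher (0.86 and 1.32, limma adjusted p = 0.0101), and Pparg, a nuclear receptor of urothelial differentiation, was 1.61-fold higher (0.72 and 0.66, adjusted p = 0.04995). Those that did not pass and read highest were Grhl1 at 0.58 (adjusted p = 0.131), Tfap2c at 0.51 (0.297), Klf5 at 0.38 (0.639) and Ovol1 at 0.28 (1.00). Trp63, the regulator of basal keratins, read -0.29 on replicate 1 and 0.30 on replicate 2.

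Genes of the urothelial surface are known for appearing with Krt20 in umbrella cells. Of 7 measured, 6 passed in limma (Grhl3 and the uroplakin genes Upk1a, Upk1b, Upk3a, Upk3b and Upk3bl), all higher in labelled knockout, where 0.229% of all genes passed in that direction, and the median log2 ratio was 1.09. Upk2 did not pass (0.45 and 1.45, adjusted p = 0.136). Their summed linear level was 20777 and 19603 in labelled knockout, against 9661 and 7213 in labelled control. These values belong beside the Krt20 ratio, and their part in it was not tested.

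Cornified envelope genes were mostly not detected: 6 of 16 were measured and none passed. Ivl (involucrin) read 0.45 and 0.54 (limma adjusted p = 0.256), Lor (loricrin) -0.31 and 0.08, Tgm3 -0.27 and 0.10, and Cnfn 0.14 and -0.25. Of 18 other intermediate filament genes none passed, and their median was -0.0206. Prph (peripherin), of peripheral neurons, read -0.50 on replicate 1 and 1.10 on replicate 2. Iffo2 read -0.24, the lamin gene Lmnb1 -0.22 and Nes (nestin) -0.20, while Vim (vimentin), the filament of mesenchyme, read -0.0244.

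Markers of other cell types gave the following values. Of 7 ureter mesenchyme markers none passed, with a summed linear level of 45692 and 44136 in labelled knockout, against 51420 and 43159 in labelled control. Among them Foxf1 read -1.004 and -0.40, Myocd -0.68 and -0.20 and Ptch1 -0.70 and -0.12, while Acta2, Tagln and Tcf21 read positive on both arrays. Of 7 collecting duct markers 3 passed, Aqp3, Elf5 and Foxi1, all higher in labelled knockout (0.229% of all genes), with sums of 6175 and 5448 in labelled knockout, against 5186 and 4434 in labelled control. Scnn1a of the same list read -0.68 and -0.67 (limma adjusted p = 0.0546), and Aqp2 and Calb1 had means of 0.0387 and 0.13. Of 6 mesothelium markers Upk3b passed, which is also a urothelial gene, with sums of 14426 and 18211 in labelled knockout, against 16564 and 16369 in labelled control. The 6 measured skeletal muscle markers had a median ratio of 0.83 on replicate 1 and 0.15 on replicate 2 with none passing, and sums of 6105 and 4487 in labelled knockout, against 3206 and 3946 in labelled control. Of 6 gut markers, which matter for Krt20, 4 were measured, Cdx1 and Cdx2 were not well above background, and the sums were 1493 and 1447 in labelled knockout, against 1419 and 1519 in labelled control. Their part in the keratin ratios was not tested.

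How much the keratin calls hang on the processing is shown by 5 keratins across all settings. Krt20 had a positive mean in each of them. It passed with processed signals, where 1.27% of all genes passed, with the authors' deposited table (0.95%), with an offset of 0 (0.652%), with no background correction (0.572%), with the mean over probes (0.443%), with a variance prior that follows intensity (0.776%) and with all 4 channels required to be well above background (0.373%). It did not pass with median centring or with no filter on dim probes, where the share of all genes was 0%, or with the 4 channels taken as unpaired samples (0.129%). Krt19 and Krt42 stayed between 0.51 and 0.56 and never passed.

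**Figure D4:**
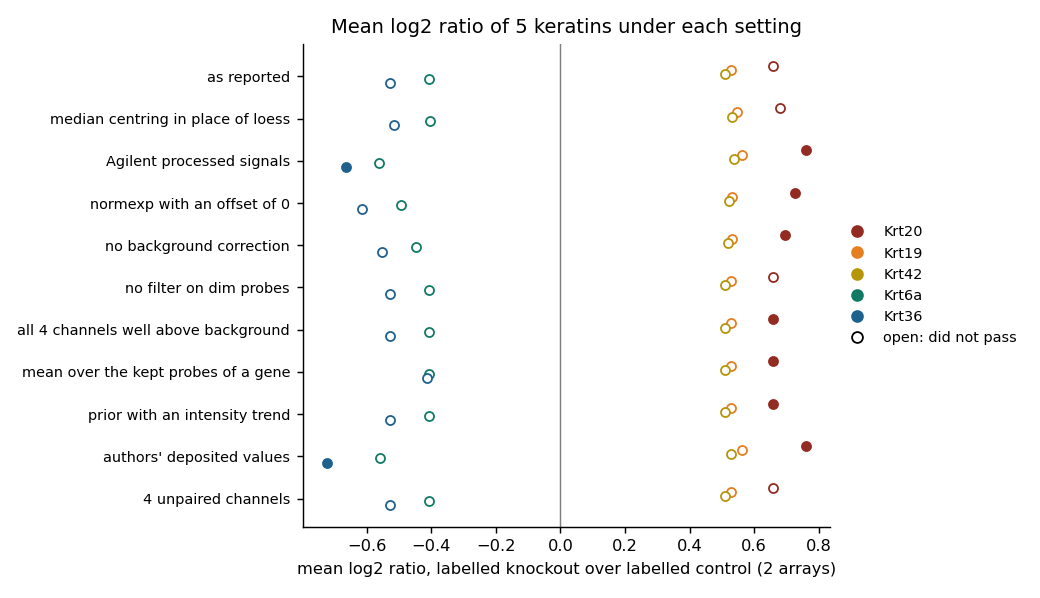
Mean log2 ratio of labelled knockout over labelled control over 2 arrays (horizontal axis) of 5 keratins under the reported setting and 10 alternatives (rows); filled points passed an adjusted p of 0.05 in limma and open points did not. Krt20 is filled in 7 of the 10 alternatives, Krt36 in the rows of processed signals and deposited values, and no point changes sign, where the deposited values were turned by the dyes beforehand.

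Upstream sequence was read for the keratins present in the RefSeq promoter set used here (GRCm38.p6), 35 genes of the family, 21 of them measured. Krt19 was among the measured keratins absent from that set and was not read. TATAAA, the core of a TATA box, stood in the 250 bases before the start of 17 of the 35 on either strand, and in 12.4% of all 32851 promoters. Of motifs bound by SMAD proteins, GGCGCC was found in 1 keratin, Krt18, and in 9.59% of all promoters, and GTCTAGAC in none and in 0.167%. AACCNGGTT, where N is any base, was found in none and in 0.240% of all promoters. The form without the N was not searched, so the absence says nothing about grainyhead motifs of that form. A match is a description of letters and not a site. The upstream sequence of Krt20 is shown as that of the measured keratin with the largest ratio, at chr11:99438154-99438403 on the minus strand, with TATAAA in capitals 29 bases before the start, and that of Krt18, at chr15:102027966-102028215 on the plus strand, as the simple type I keratin whose ratio was near 0, with GGCGCC in capitals 86 bases before the start.
Krt20: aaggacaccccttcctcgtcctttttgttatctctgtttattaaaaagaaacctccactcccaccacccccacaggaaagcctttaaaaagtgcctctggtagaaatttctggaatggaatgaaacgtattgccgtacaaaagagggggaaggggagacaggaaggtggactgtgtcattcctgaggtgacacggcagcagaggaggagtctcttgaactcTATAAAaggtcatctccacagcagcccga
Krt18: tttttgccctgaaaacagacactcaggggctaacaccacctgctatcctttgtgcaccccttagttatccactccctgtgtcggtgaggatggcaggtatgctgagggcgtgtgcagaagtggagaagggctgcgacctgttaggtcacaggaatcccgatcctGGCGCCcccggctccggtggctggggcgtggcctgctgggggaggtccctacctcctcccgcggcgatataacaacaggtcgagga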

How the data were processed

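Spot intensity was deposited for both channels, read with Agilent Feature Extraction 10.7.3.1 according to the submitters' processing notes. Per the file headers, the scanner files also hold processed intensity and log10 ratios (red over green). A separate value table by the authors gives a score per probe, a signed fold of unstated scaling. The dyes in the labels make that score control over knockout (correlation with red over green 0.806 on replicate 1 and -0.724 on replicate 2), although its titles name the knockout first. It was turned and served as an alternative. Labelling started from 150 ng of RNA per the labels' protocols, and the arrays shared a slide.

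Mean signals were background-corrected (normexp, offset 50) and loess-normalised, giving control spots a weight of 0. Outlier spots (3.52% and 3.66% of probe spots) and control spots were then dropped. Saturation was marked at no spot. Each probe is the mean of those of its 4 spots that remained. A probe entered if, for knockout or control, 2 or more spots exceeded background clearly on each array, and the brightest probe stood for a gene. Channel levels are log2 values after loess and Aquantile, open to dye bias. Log2 ratios were tested against 0 in R 4.3.3 with limma 3.58.1, two-sided, adjusted by Benjamini-Hochberg across 20104 genes, with 1 residual degree of freedom and a prior of 9.21. The pairing comes from the shared array. The fold of Krt78 compares mean log2 levels, with the dim side at the higher of its own signal and the lowest signal well above background. Steps were tested on simulated data.

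Members and gene lists were chosen with earlier results of these data known. Each measured keratin is named, and of each related list those that passed and up to 4 others with the largest absolute mean. Trp63, Vim and marker genes named beyond that were chosen after their values were seen. Of the keratin probes, 62 were matched to RefSeq by accession and 3 by symbol, and 3 keep the scanner file's symbol. Positions come from the array design (mm9). Exons, untranslated regions and proteins were not used here. One probe sequence is not reported here. Plots were drawn with matplotlib 3.10.9. The number of arrays, 2, limits the precision.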

Additional observations from a re-analysis of the deposited data

Results flagged for a closer look

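Krt15, Krt222, Krt23, Krt75 and Krt79 had ratios of opposite sign on the 2 arrays, each further from 0 than 2 SD of its spots. The difference of the log2 ratio of labelled knockout over labelled control, replicate 1 (female) minus replicate 2 (male), was -0.70 for Krt15, -0.46 for Krt222, 0.48 for Krt23, -1.07 for Krt75 and -0.42 for Krt79. With 1 array per sex the differences were not tested, and sex and dye orientation cannot be told apart. All but Krt23 were brighter in Cy5 on both arrays.

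Krt17, a keratin of stressed epithelium and basal cells, did not enter the test. On replicate 2, 4 spots of its probe were well above background in the labelled knockout channel and 1 in the labelled control channel, and on replicate 1 none was in either channel, so no ratio is given.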

How the results depend on the processing

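The keratin count that passed was 0, and alternatives gave 3 with processed signals and 3 with the deposited table (Krt20, Krt36 and Krt78, whose control channels were not well above background), and 1 (Krt20) with an offset of 0, no background correction, all 4 channels well above background, the mean over probes or an intensity trend. All genes that passed were 255 with processed signals, 191 with deposited values, 156 with the trend, 131 with an offset of 0, 115 with no background correction, 89 with the mean over probes and 73 with 4 channels, against 66. With median centring and with no filter on dim probes 0 genes passed in limma, while 347 and 1097 genes, with 5 and 7 keratins among them, had an unadjusted p under 0.05. Related genes that passed were 7, against 0 with median centring and 0 with no filter, 11 each with processed signals, an offset of 0, the trend and deposited values, and 3 with no replicate block, where the 4 channels stood as unpaired samples and 26 genes and 0 keratins passed. Keratins at least 1.5-fold apart in 1 direction on each array were 2 with processed signals and 2 with deposited values, against 1. With a replicate left out they were 2 to 3, under a looser rule that asks for 1.5-fold on the remaining array alone. The keratin median was -0.00946 to 0.0568 with a replicate left out. With all 4 spots required, 19 keratin probes were well above background in place of 36. Outlier spots were not counted, so a probe with 1 such spot failed this rule at any brightness. Krt18 and Krt19, at levels of 16.72 and 14.88 in labelled knockout on replicate 1, were among those that failed it. The cause of the other differences between settings was not tested.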
